A study of Mus musculus with 4 samples.

Results

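The genes described here are 10 that build the meiotic chromosome axis and the synaptonemal complex, followed in germ cells of testicular organoids (TOs) and of mouse testes: Sycp1, Sycp2, Sycp3, Syce1, Syce2, Syce3, Tex12, Hormad1, Smc1b and Stag3. They were chosen by name, and 10 of 10 were found among the 32285 genes of the count matrices. For each gene the UMIs (unique molecular identifiers, each standing for 1 captured RNA molecule) were summed per library over 5 germ cell stages, spermatogonia, leptotene to zygotene, pachytene, diplotene and spermatid. A level is given in CPM, the UMIs of the gene scaled to 1000000 UMIs of the stage and library.

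The study compared 28-day-old TOs with testes of 28-day-old mice, with 2 libraries of unsorted cells for each, made with the 10x Genomics Chromium kit that reads the 3′ end of transcripts. The TOs were rebuilt from dissociated testis cells of neonatal ICR mice, formed spheroids, were embedded in extracellular matrix and were cultured at an air-liquid interface, so a TO is a culture of reassembled neonatal cells and not an explant. The labels give day 28 in the design and day 21 in the dissociation protocol for the TOs. Per the methods of the study, the TO medium held serum replacement, testosterone, follicle-stimulating hormone and antioxidants. TOs and testes therefore differ in this culture treatment too. No genotype, transgene or drug distinguishes the groups in the labels, and the methods of the study describe the organoid libraries as coming from separate batches, while the number of animals behind each testis library is not given in the sources used here. The p-values therefore measure the spread between 2 libraries per group.

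In meiotic prophase, each pair of sister chromatids is organised as loops on a protein axis, and the axes of paired chromosomes are then joined along their length by the synaptonemal complex. The axis holds cohesins with meiotic subunits (SMC1B, STAG3), HORMA domain proteins (HORMAD1) and the axial element proteins SYCP2 and SYCP3. SYCP1 forms the transverse filaments that span the gap between the axes, and SYCE1, SYCE2, SYCE3 and TEX12 form the central element in the middle. Axes form at leptotene, synapsis starts at zygotene and is complete at pachytene, and the complex is taken apart at diplotene.

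The genes lie on 8 autosomes (GRCm38, GENCODE annotation). Among the axial and axis genes, Sycp2 is at chr2:178345293-178407685 on the minus strand, Sycp3 at chr10:88459569-88473236 on the plus strand and Hormad1 at chr3:95559677-95587671 on the plus strand. The cohesin genes Smc1b and Stag3 are at chr15:85064689-85131964 on the minus strand and chr5:138280240-138312393 on the plus strand. Sycp1, the transverse filament gene, is at chr3:102818499-102936100 on the minus strand. Of the central element genes, Syce1 is at chr7:140777229-140787852 and Syce3 at chr15:89390174-89410503, both on the minus strand, while Syce2 is at chr8:84872111-84888221 on the plus strand and Tex12 at chr9:50556819-50561325 on the minus strand. Sycp3, Syce2 and Tex12 overlap a protein-coding gene on the opposite strand (Chpt1, Gcdh and Il18), and Sycp1, Syce1 and Smc1b overlap processed or unprocessed pseudogenes on the opposite strand, so their counts rely on the strand being used, which the sources used here do not state.

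Promoters were read from RefSeq (GRCm38.p6, 250 bases before to 50 after each annotated start), where 10 of 10 genes matched. Outside the germ line, meiotic genes are known to be held silent by a Polycomb complex that carries the DNA-binding proteins MGA with MAX, which bind the E-box CACGTG, and E2F6, which binds GCGGGAA. The E-box, which reads the same on both strands, stood in the promoters of 6 of the 10 genes (Sycp1, Sycp3, Syce2, Tex12, Hormad1 and Stag3). Of all 27025 genes, 8.09% had it in a promoter (7.15% of all 32851 promoters). GCGGGAA, searched on both strands, also stood in 6 of 10 (Sycp3, Syce2, Tex12, Hormad1, Smc1b and Stag3), against 5.29% of all genes (4.60% of promoters). Both were present in 5 of 10 genes, against 0.514% of all genes (0.457% of promoters). The motifs do not overlap each other, and a match of letters is not evidence that a factor binds there. The stretches before the RefSeq start that hold both motifs are shown for 4 genes, with the one E-box of Sycp1 for comparison. The stretch of Syce2 lies after the GENCODE start given above, because its RefSeq start lies farther downstream. Each is written 5′ to 3′ on the strand of the gene, with the motifs in capitals.
Sycp3, chr10:88459428-88459561, plus strand: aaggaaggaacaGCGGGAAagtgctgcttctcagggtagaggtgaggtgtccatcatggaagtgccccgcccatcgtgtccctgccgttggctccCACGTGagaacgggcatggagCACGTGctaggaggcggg
Hormad1, chr3:95559570-95559674, plus strand: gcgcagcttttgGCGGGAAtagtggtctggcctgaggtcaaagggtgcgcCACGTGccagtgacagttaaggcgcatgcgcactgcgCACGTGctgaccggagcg
Tex12, chr9:50561344-50561425, minus strand: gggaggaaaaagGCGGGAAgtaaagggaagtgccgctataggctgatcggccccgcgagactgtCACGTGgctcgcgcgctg
Syce2, chr8:84872158-84872242, plus strand: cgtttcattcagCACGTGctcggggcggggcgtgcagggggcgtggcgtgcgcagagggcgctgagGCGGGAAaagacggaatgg
Sycp1, chr3:102936177-102936206, minus strand: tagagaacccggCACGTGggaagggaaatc
In Sycp3, Hormad1 and Tex12 the GCGGGAA motif stood farther from the start than the E-box, and in Syce2 the order was the opposite.

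After filtering, 9747 and 8729 cells were kept in the TO libraries and 9894 and 9527 in the testis libraries, of which 834, 617, 6930 and 7696 were germ cells with a stage. The stages were drawn from marker genes that hold none of the 10 genes. Germ cells made up 9.39% and 7.79% of TO cells and 72.9% and 84.1% of testis cells, and any 2 libraries shared 30 to 55 barcodes. In TOs most staged cells were early: spermatogonia numbered 546 and 301 and leptotene to zygotene cells 206 and 262, against 47 and 7 pachytene, 23 and 31 diplotene and 12 and 16 spermatid cells. In testes most were late, with 600 and 219 spermatogonia, 286 and 187 leptotene to zygotene cells, 740 and 556 pachytene, 2017 and 1906 diplotene and 3287 and 4828 spermatid cells. All leptotene to zygotene cells of both conditions fell in a single cluster. The clusters were made after the libraries had been joined with Harmony, so a shared cluster does not show that the cells were alike.

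The late stage names were not equally well borne out in TOs. Cells named diplotene carried the 9 markers of leptotene to zygotene at a summed level of 1025 and 2732 CPM in TOs and at 125 and 135 in testes. Of the TO cells named diplotene, 57.4% came from a cluster that held 13.1% of those of the testes. The 12 cells named spermatid in the first TO library had UMIs for 2 of 13 spermatid markers, with Tnp1, Tnp2, Prm1, Prm2 and Acrv1 at 0, and carried the spermatogonia markers at 2210 CPM, whereas the 16 of the second TO library had 10 of 13. A further cluster, of 32 and 28 TO cells and 154 and 222 testis cells, was left without a name because its pachytene score went with leading genes of the leptotene to zygotene list (Meiob, Rad51ap2). It is called the unnamed meiotic cluster here and is described after the named stages.

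**Figure D1:**
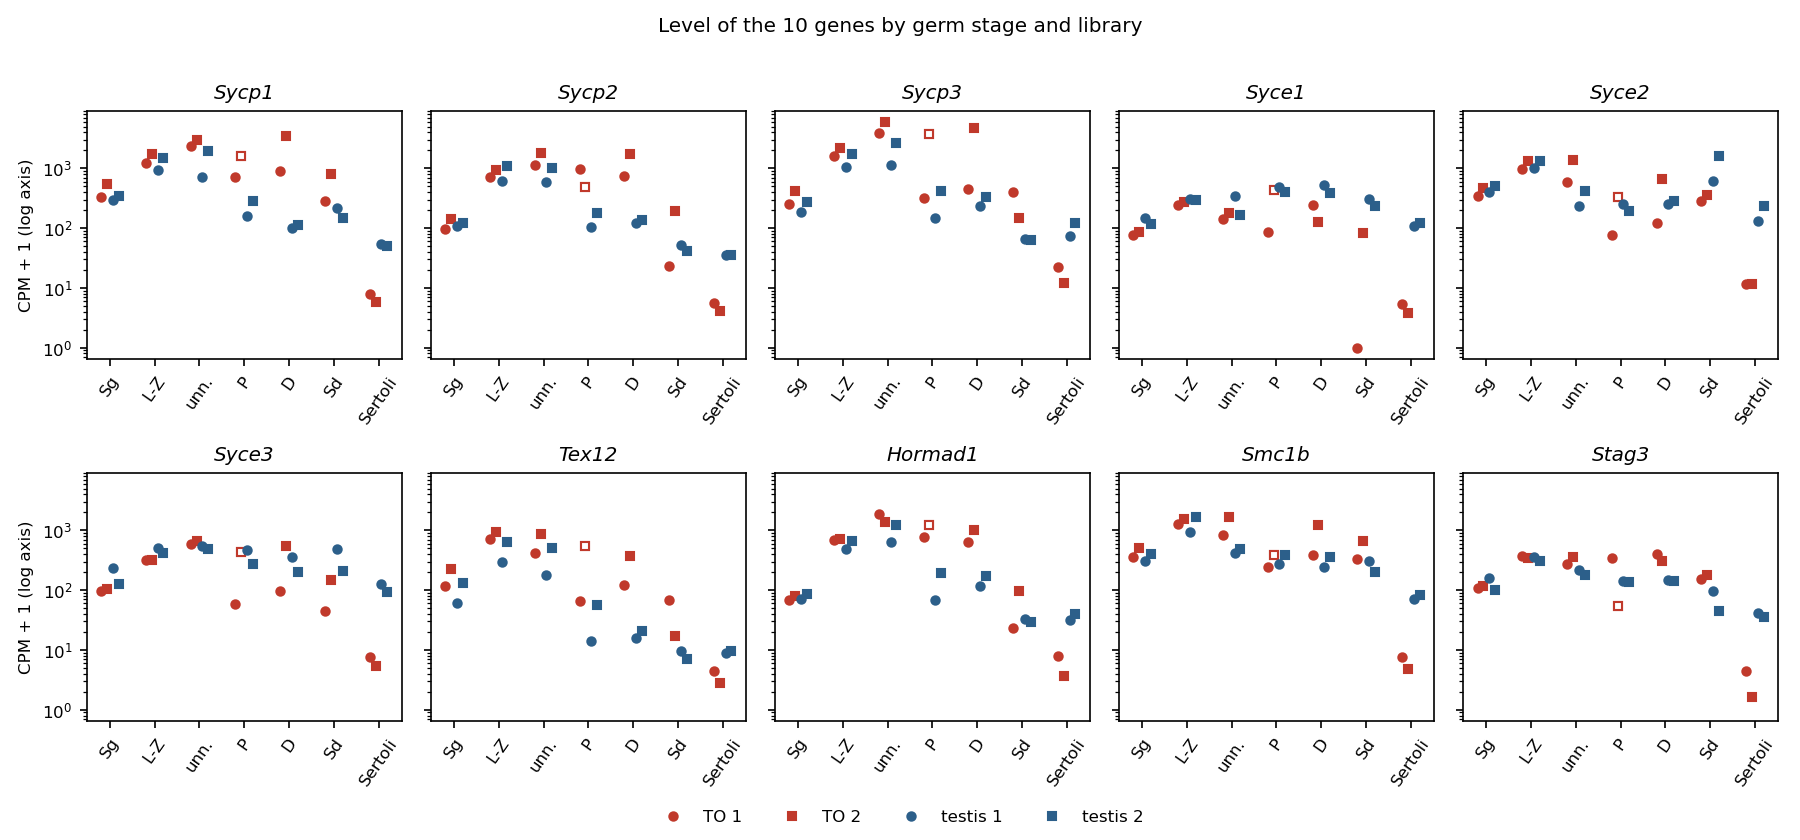
Level of each gene in CPM plus 1 (vertical axis, log scale) in spermatogonia (Sg), leptotene to zygotene (L-Z), the unnamed meiotic cluster (unn.), pachytene (P), diplotene (D), spermatids (Sd) and Sertoli-like cells, with 1 point per library and the 7 pachytene cells of the second TO library open. Among the named stages with at least 10 cells in a library, 8 of 10 genes were highest at leptotene to zygotene in both testis libraries. In both TO libraries 4 of 10 were, with pachytene left out of the ranking in the second TO library.

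Within testes, 8 of 10 genes were highest at leptotene to zygotene in both libraries when the 5 named stages were compared. The unnamed meiotic cluster was not among them, and there Sycp3 (1114 and 2612) and Hormad1 (648 and 1234) were higher than at leptotene to zygotene in both testis libraries. Sycp3, the axial element protein used to stage spermatocytes, stood at 188 and 276 CPM in testis spermatogonia, 1039 and 1721 at leptotene to zygotene, 145 and 416 at pachytene and 238 and 332 at diplotene. Both leptotene to zygotene libraries lay above every library of the other 3 stages. Sycp2, its partner, had the mean order leptotene to zygotene (854), pachytene (139), diplotene (129), spermatogonia (115) and spermatid (45.2), in which pachytene, diplotene and spermatogonia overlapped their neighbours and the first and last stages stood apart. These stage levels are given as a description, without a test.

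The exceptions were central element genes. Syce1, which joins SYCE3 and SYCP1 in the central element, was at 302 and 298 CPM at leptotene to zygotene in testes, at 482 and 406 at pachytene and at 516 and 393 at diplotene, so it was higher at these later stages than at leptotene to zygotene in both libraries. Syce3 stood at 501 and 419 at leptotene to zygotene and 361 and 202 at diplotene, and each stage from leptotene to zygotene on overlapped its neighbour in the order of means. Syce2, which forms fibres with TEX12, was at 1014 and 1322 at leptotene to zygotene, at 257 and 284 at diplotene and at 609 and 1584 in spermatids. Its partner Tex12 followed another course, with 300 and 648 at leptotene to zygotene and 14.7 and 19.7 at diplotene. The testis level of Syce2 in spermatids differed between clusters: it was 916 and 1679 in a cluster led by Tnp2 and Tnp1, genes of the transition proteins that replace histones, 424 and 3184 in one led by Car2, Prm2 and Spem1, and 311 and 262 in another. The testis libraries differed more from each other in the cluster led by Car2 than in the other clusters named. That cluster held 37 cells of the first testis library and 1053 of the second.

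At leptotene to zygotene the TOs carried all 10 genes, and none of the 10 was called different from testis (edgeR quasi-likelihood test, Benjamini-Hochberg adjusted p below 0.01 and a log2 fold change beyond 1 in either direction). Of all 10290 genes tested at this stage, 15.6% were called, 109 higher and 1496 lower in TOs. DESeq2 called 0 of the 10 as well and 13.3% of all genes, and 2 of the 10 had an unadjusted p below 0.05 with edgeR. The median log2 fold change of TO over testis was 0.03 over the 10 genes and -0.02 over all genes tested.

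The libraries of TOs and testes overlapped for the axial and filament genes. Sycp3 was at 1600 and 2158 CPM in TOs and at 1039 and 1721 in testes. Sycp1 was at 1229 and 1727 against 927 and 1505, and Sycp2 at 714 and 941 against 614 and 1093. In each of these 3 genes the lower TO library stood between the testis libraries. Hormad1, which marks axes that are not yet synapsed, was at 696 and 723 in TOs and 493 and 668 in testes, with the TO libraries above both testis libraries by less than the gap between the testis libraries.

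The cohesin genes overlapped as well. Smc1b was at 1259 and 1576 in TOs and 954 and 1665 in testes, and Stag3 at 367 and 345 against 365 and 310. Among the central element genes, Syce2 was at 981 and 1312 against 1014 and 1322, and Syce1 at 244 and 274 against 302 and 298. The farthest from testis were Tex12 and Syce3. Tex12 was at 717 and 941 CPM in TOs and at 300 and 648 in testes, a log2 fold change of 0.76 with a standard error of 0.34 (edgeR adjusted p = 0.14). Syce3, the small protein that links the filaments to the central element, was at 315 and 320 in TOs and 501 and 419 in testes, a log2 fold change of -0.60 with a standard error of 0.24 (edgeR adjusted p = 0.0946). The libraries of the groups did not overlap for Tex12, Syce3, Hormad1 and Syce1, and none of the 4 passed the test. The share of all genes without overlap is not given here. With so few libraries an exact permutation test cannot give less than 0.333, so a lack of overlap alone does not set these genes apart.

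**Figure D2:**
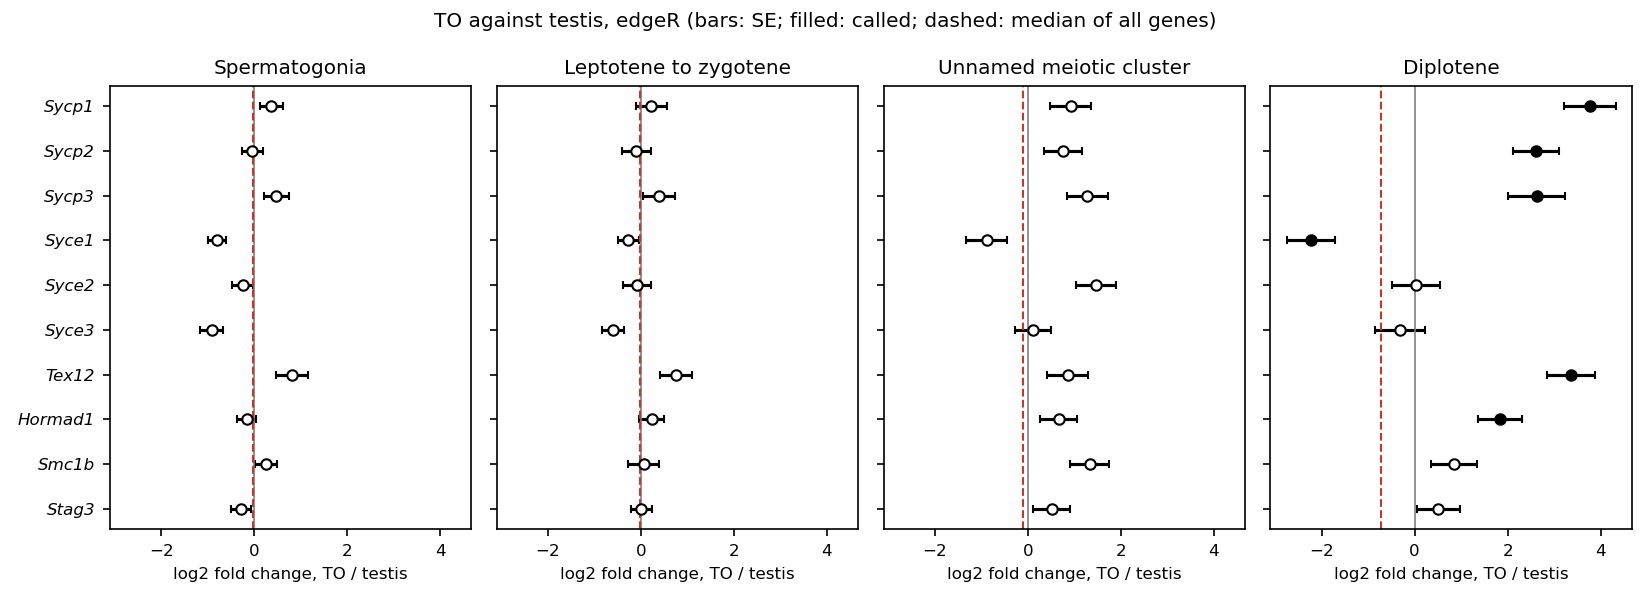
Log2 fold change of TO over testis from edgeR (horizontal axis) with its standard error for each gene in 4 groups of cells, filled where the gene was called, with the median of all genes dashed. None of the 10 genes was called in spermatogonia, at leptotene to zygotene or in the unnamed meiotic cluster, and 6 were called at diplotene, from -2.23 for Syce1 to 3.76 for Sycp1.

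In spermatogonia, which as a class include cells about to enter meiosis, UMIs of all 10 genes were found and 0 of 10 were called with edgeR, of 13.4% of all 13645 genes tested. DESeq2 also called 0 of the 10 and 11.2% of all genes, and 3 of the 10 had an unadjusted p below 0.05 with edgeR and 2 with DESeq2. The median log2 fold change was -0.10 over the 10 genes and -0.01 over all genes. Sycp3 was at 255 and 415 CPM in TOs and 188 and 276 in testes, Smc1b at 362 and 513 against 305 and 396, and Sycp1 at 329 and 535 against 291 and 350. Each of these had overlapping libraries.

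Syce1 and Syce3 were lower in TO spermatogonia without overlap. Syce1 was at 75.7 and 83.4 CPM in TOs and at 147 and 114 in testes, a log2 fold change of -0.80 with a standard error of 0.19 (edgeR adjusted p = 0.00899), which passed on p and missed the fold limit. Syce3 was at 97.2 and 105 against 231 and 125, a log2 fold change of -0.91 with a standard error of 0.25 (edgeR adjusted p = 0.0202). In testes, both genes had higher levels at diplotene than in spermatogonia of the same library, and UMIs of spermatid markers were found in the early cells of the testis libraries. The summed level of the 13 spermatid markers in spermatogonia was 2625 and 4047 CPM in testes, with 13 of 13 detected, and 20.2 and 27.0 in TOs. At leptotene to zygotene it was 3534 and 5517 against 17.5 and 24.9.

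Somatic cells, which should lack these genes, also held UMIs of them, at levels that differed between somatic cell types. The source of these UMIs, and the part of any stray RNA in the lower Syce1 and Syce3 of TO spermatogonia, was not tested. In Sertoli-like cells Syce1 was at 107 and 120 CPM in testes and at 4.4 and 2.8 in TOs, and Syce3 at 93.3 to 125.5 in testes and 4.4 to 6.7 in TOs. Syce1 in testis spermatogonia, at 147 and 114, was thus above testis Sertoli-like cells in the first library and slightly below them in the second. Testis Leydig-like cells had 60.5 and 30.2 and testis macrophage-like cells 131 and 60.6. After thinning every cell to 1500 UMIs, 22.3% and 17.8% of testis spermatogonia and 19.8% and 25.8% of testis Sertoli-like cells had a Syce1 UMI, against 11.4% and 9.97% of TO spermatogonia and 1.30% and 0.253% of TO Sertoli-like cells. The Syce1 share in testis spermatogonia was thus above that of Sertoli-like cells in the first testis library and below it in the second. It was above that of testis Leydig-like cells (10.2% and 6.50%) in both, and testis macrophage-like cells had 18.4% and 7%. Without thinning the Syce1 shares were 50.3% and 51.1% in testis spermatogonia and 44.4% and 40.0% in testis Sertoli-like cells. In an alternative added after seeing the data, the level in Sertoli-like cells was subtracted from each sum of the same library. That level was higher in the summed 10 genes than the level in Leydig-like cells. Results below 0 were set to 0, which held for Syce1 in the second testis library (114 CPM against 120). The log2 fold change in spermatogonia then became 1.62 with a standard error of 1.39 for Syce1 and 0.26 for Syce3. The value for Syce1 thus rests on a testis library set to 0 and is not a measured level. With this subtraction edgeR called 0 of the 7506 genes tested (1560 at an unadjusted p below 0.05).

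Sycp3, Sycp1 and Tex12 stood farther from the level in Sertoli-like cells. Tex12 was at 8.0 and 8.7 CPM in testis Sertoli-like cells, against 60.0 and 129 in testis spermatogonia and 116 and 222 in TO spermatogonia. Sycp3 was at 71.5 and 123 in testis Sertoli-like cells and at 21.7 and 11.3 in those of TOs, below every value of the early germ stages.

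The rise from spermatogonia to leptotene to zygotene was compared between conditions in a fit over spermatogonia, leptotene to zygotene and diplotene sums. The rise was called different for 0 of 10 genes, of 0.593% of the 14998 genes tested with edgeR, and 2 of the 10 had an unadjusted p below 0.05, Syce1 with a difference of 0.74 on the log2 scale (edgeR adjusted p = 0.202) and Hormad1 with 0.66 (edgeR adjusted p = 0.301). The difference was positive, a larger rise in TOs, for 10 of 10 genes and for 8 of 10 with another scaling (DESeq2-type size factors, RLE), with a median of 0.34 over the 10 genes and 0.18 over all genes. The median over the 10 genes was 0.15 with RLE scaling, and without TO replicate 1 it was 0.12 with 6 of 10 positive.

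**Figure D3:**
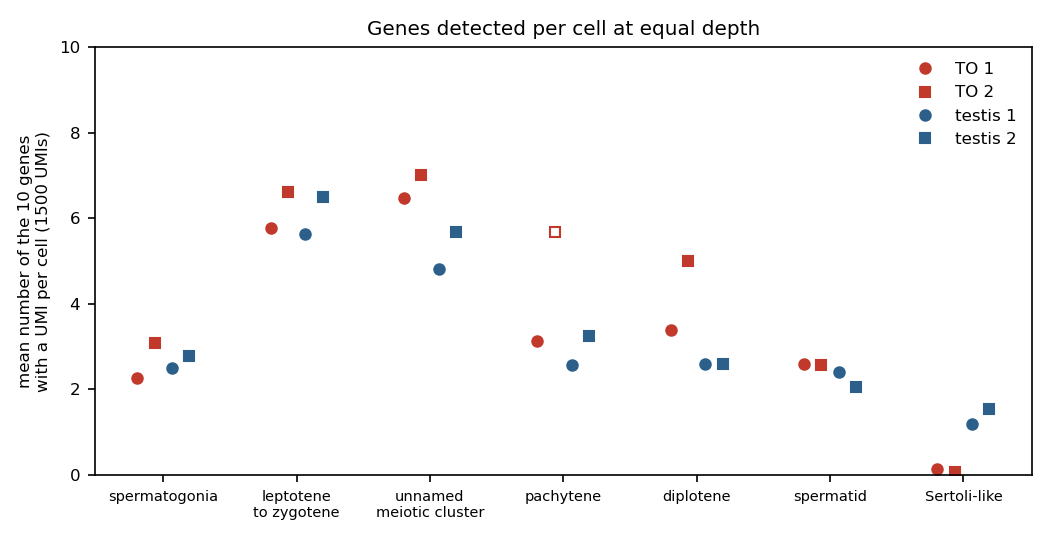
Mean number of the 10 genes with at least 1 UMI per cell after thinning each cell to 1500 UMIs (vertical axis), by cell group (horizontal axis), with 1 point per library and the pachytene point of the second TO library open for its few cells. At leptotene to zygotene the TO libraries had 5.76 and 6.62 genes per cell and the testis libraries 5.63 and 6.50.

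Cell by cell, the number of these genes found at leptotene to zygotene differed by less between conditions than between libraries of a condition. A thinned cell held 5.76 and 6.62 of the 10 genes in TOs (6.19 ± 0.607, SD, n = 2) and 5.63 and 6.50 in testes (6.06 ± 0.614, SD, n = 2), a difference of 0.126 (exact two-sided permutation p = 0.667, where 2 against 2 libraries cannot give less than 0.333). At least 5 of the 10 genes were found in 73.5% and 90.5% of thinned TO cells and 73.4% and 87.2% of thinned testis cells. Without thinning the means were 9.17 and 9.43 in TOs and 7.97 and 8.68 in testes, at median depths of 6618.5 and 8364 UMIs per TO cell and 3211.5 and 3769 per testis cell, and 2 cells of the first TO library were too shallow to be thinned. Single genes varied more: Sycp3 was found in 73.0% and 88.5% of TO cells and 73.8% and 86.1% of testis cells, and Tex12 in 59.3% and 72.1% against 36.0% and 61.5%. In Sertoli-like cells these shares were 2.92% to 20% for Sycp3 and 0.380% to 2.08% for Tex12.

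In spermatogonia a thinned cell held 2.27 and 3.08 of the genes in TOs against 2.51 and 2.78 in testes, and the conditions differed by 0.0292 (exact permutation p = 1). For comparison, Sertoli-like cells held 0.152 and 0.0760 in TOs and 1.18 and 1.55 in testes, and Leydig-like cells 0.114 and 0.0507 in TOs and 0.577 and 0.390 in testes. The testis value thus stood nearer to that of cells which should lack the genes, for either cell type. Cells named diplotene held 3.38 and 5.00 in TOs and 2.59 and 2.59 in testes (difference 1.60, exact permutation p = 0.333), after 10 of the 23 cells of the first TO library were left out for too few UMIs. The difference was 0.117 with doublets kept, 0.795 without TO replicate 2 and 2.41 without TO replicate 1.

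In the unnamed meiotic cluster, axial, filament and HORMA domain genes were higher in both TO libraries than in both testis libraries, without passing the test. Sycp3 was at 3829 and 5851 CPM in TOs and 1114 and 2612 in testes, and every thinned TO cell had a Sycp3 UMI (100% and 100%, against 79.9% and 95.9% in testes). Sycp1 was at 2323 and 2994 against 708 and 1938, Hormad1 at 1864 and 1379 against 648 and 1234, and Sycp2 at 1130 and 1805 against 585 and 1009. The groups did not overlap for any of these 4 genes, but the share of all genes without overlap in this cluster is not given here.

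None of the 10 genes was called in this cluster with edgeR, of 16.9% of all 8788 genes tested, although 4 had an unadjusted p below 0.05, and DESeq2 also called 0 of the 10 and 9.58% of all genes. The largest differences were those of Syce2, at 586 and 1364 CPM against 236 and 418 (log2 fold change 1.47, standard error 0.43, edgeR adjusted p = 0.0113), Smc1b, at 831 and 1663 against 421 and 479 (1.33, standard error 0.42, edgeR adjusted p = 0.0173), and Sycp3 (1.28, standard error 0.45, edgeR adjusted p = 0.0333). With RLE scaling Syce2 was called. Syce1 went the other way, at 143 and 175 against 343 and 165, with overlapping libraries (log2 fold change -0.88, edgeR adjusted p = 0.146). The median was 0.82 over the 10 genes and -0.11 over all genes.

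The cells that share this cluster were not alike in the conditions. The leptotene to zygotene markers were at 2231 and 3300 CPM in TOs and 494 and 1037 in testes, with 9 of 9 detected in each library. The 8 pachytene markers were at 1366 and 1117 against 4821 and 3603, and the spermatid markers, of which 2 and 4 of 13 had a UMI in TOs, at 29.5 and 25.5 against 1550 and 3515. Somatic markers were higher in TOs too: the 7 Sertoli markers were at 291 and 124 (5 and 4 of 7 detected, Amh and Krt18 at 0 in both) against 39.8 and 21.4, and the 8 markers of other somatic cells at 708 and 153 against 20.2 and 27.0. The median mitochondrial share of a cell was 4.95% and 6.01%, against 2.14% and 2.40%. The part of these in the differences of the 10 genes was not tested.

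At pachytene, where synapsis is complete, the second TO library had 7 cells and no test was made. The TO and testis cells lay in different clusters: 83.3% of TO cells were in a cluster that held 25.9% of the testis cells, and 0 were in the cluster that held 55.1% of the testis cells. Of the TO cells, 44 of 47 in the first library were in the former cluster and 6 of 7 in the second library in another. Sycp3 was at 312 CPM in the 47 cells of the first TO library and 3750 in the 7 of the second, against 145 and 416 in testes. Hormad1 was at 784 and 1250 against 67.9 and 193, and Sycp1 at 728 and 1630 against 156 and 284. The TO values of Sycp3, Hormad1 and Sycp1 were above the testis values except for Sycp3 in the first library. Central element genes went the other way in the first TO library. After thinning, Syce1 was found in 5% of its cells against 47.3% and 43.0% in testes. Syce2 was found in 7.5% against 29.7% and 25.7%, and Syce3 in 10% against 46.4% and 34.9%. In the 6 thinned cells of the second TO library each of these was found in 50%. The TO cells also carried leptotene to zygotene markers, at 983 and 543 CPM against 140 and 131, and in the first TO library 4 of 7 Sertoli markers at 898 (Sox9, Amh and Krt18 at 0), against 19.2 and 14.5 in testes.

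In the cells named diplotene, 5 of the 10 genes were called higher in TOs and 1 lower with edgeR, where 25.7% of all 12356 genes were called, 10.4% higher and 15.3% lower. Sycp1 was at 905 and 3499 CPM in TOs and 99.8 and 110 in testes, a log2 fold change of 3.76 with a standard error of 0.56 (edgeR adjusted p = 4.39e-06). Tex12 was at 119 and 378 against 14.7 and 19.7 (3.36, standard error 0.52, edgeR adjusted p = 6.56e-06), and Sycp2 at 739 and 1725 against 120 and 137 (2.61, standard error 0.50, edgeR adjusted p = 0.000104). For these 3 genes the lower TO library was several times above the higher testis library.

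Sycp3 was at 453 and 4780 against 238 and 332 (log2 fold change 2.63, standard error 0.61, edgeR adjusted p = 0.000865), with a wide gap between the TO libraries, and without the second TO library its log2 fold change was -0.61, in a fit whose median over all genes was -2.24. The level of the first TO library was above both testis libraries. Hormad1, which is known to leave the axes on synapsis and to return at diplotene, was at 643 and 1008 against 117 and 173 (1.83, standard error 0.47, edgeR adjusted p = 0.0024). The gene called lower was Syce1, at 238 and 126 against 516 and 393 (-2.23, standard error 0.52, edgeR adjusted p = 0.00083). Smc1b, Stag3, Syce2 and Syce3 were not called, with log2 fold changes of 0.84, 0.51, 0.02 and -0.32. DESeq2 called 3 genes higher and 1 lower, and 20.3% of all genes it tested. The median over the 10 genes was 1.34, while that over all genes was -0.72, and -0.87 with RLE scaling, under which the same 5 and 1 were called. Without TO replicate 2 these medians were -0.19 and -2.24, and with doublets kept 0.30 and -0.35.

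These calls rest on few molecules. The first TO library gave 38 UMIs of Sycp1, 31 of Sycp2, 19 of Sycp3, 27 of Hormad1, 10 of Syce1 and 5 of Tex12 at diplotene, out of 41967 UMIs in 23 cells. Without the second TO library 1 of the 10 genes was called higher and 3 lower (2.84% and 10.1% of all genes), and without the first testis library 2 higher and 0 lower (2.79% and 9.3%). The TO cells carried leptotene to zygotene markers as given above, and Sertoli markers at 1239 CPM in the first TO library (5 of 7 detected, Amh and Krt18 at 0) and at 137 in the second (4 of 7 detected, Cldn11, Amh and Krt18 at 0), against 68.1 and 57.1 in testes, and the part of either in the result was not tested. In the one cluster that held most of the TO cells, tested alone, 4 genes were called higher (Sycp1, Tex12, Sycp2 and Sycp3, by log2 fold changes of 4.25, 3.63, 3.00 and 2.79) and Syce1 lower (-2.90), among 46.9% of 6449 genes called, 16.8% higher and 30.1% lower.

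In cells named spermatid, edgeR called 0 of the 10 genes and 0% of all 14978 genes, with 3922 genes at an unadjusted p below 0.05, while DESeq2 called 18.1% of 13235 genes and 3 of the 10 as lower. These 3 were Syce1, Syce2 and Syce3, central element genes that stay detectable in testis spermatids. Syce1 was at 0 and 80.4 CPM in TOs and 308 and 235 in testes (edgeR log2 fold change -4.23, adjusted p = 0.149). Syce2 was at 287 and 354 against 609 and 1584 (edgeR -3.64, adjusted p = 0.171), and Syce3 at 44.2 and 145 against 482 and 206 (edgeR -3.37, adjusted p = 0.17). All 3 were lower in both TO libraries than in both testis libraries, in 12 and 16 TO cells of which the first 12 had UMIs for 2 of 13 spermatid markers. Of these TO cells 46.4% were in a cluster that held 2.27% of testis spermatids, and 0 were in the testis cluster led by Tnp2 and Tnp1.

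Summed over all germ stages, Tex12 was called higher in TOs (edgeR log2 fold change 2.85, adjusted p = 0.00372) and Syce1 lower (-2.05, adjusted p = 0.00408), among 52.5% of all 20191 genes called, 18.4% higher and 34.1% lower. The median was 0.79 over the 10 genes and -0.43 over all genes. These sums hold the stages in very different proportions, mostly spermatogonia and early spermatocytes in TOs and mostly spermatids and diplotene cells in testes. Neither gene was called in spermatogonia or at leptotene to zygotene, though Syce1 in spermatogonia passed on p and missed only the fold limit. At diplotene Tex12 was called higher and Syce1 lower, as in the sums. The part of the stage mix in the calls on the sums was not tested.

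A list of 22 further axis, cohesin and synapsis genes was tested in the same fits. At leptotene to zygotene 0 of 21 tested were called by edgeR (2 at an unadjusted p below 0.05) and 0 by DESeq2. Of all genes 15.6% and 13.3% were called there. In spermatogonia, where edgeR called 13.4% and DESeq2 11.2% of all genes, edgeR called 1 of 20 and DESeq2 0 (1 at an unadjusted p below 0.05). It was Ccdc155 (KASH5, which ties telomeres to the motor outside the nucleus), lower at 9.2 and 8.8 CPM in TOs and 25.2 and 21.4 in testes (log2 fold change -1.45, standard error 0.33, edgeR adjusted p = 0.0062), and at 0.28 with the level in Sertoli-like cells subtracted. At diplotene 6 of 20 were called higher and 0 lower (10.4% and 15.3% of all genes), and 5 by DESeq2 (20.3% of all genes). They were 4930447C04Rik (SIX6OS1, a central element protein, 5.29), the cohesin genes Smc1a (3.74) and Stag1 (2.94), Hormad2 (3.32), Trip13 (3.29), the ATPase that removes HORMADs from axes, and Fkbp6 (1.91). The limits on the diplotene cells given above hold for these genes too.

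**Figure D4:**
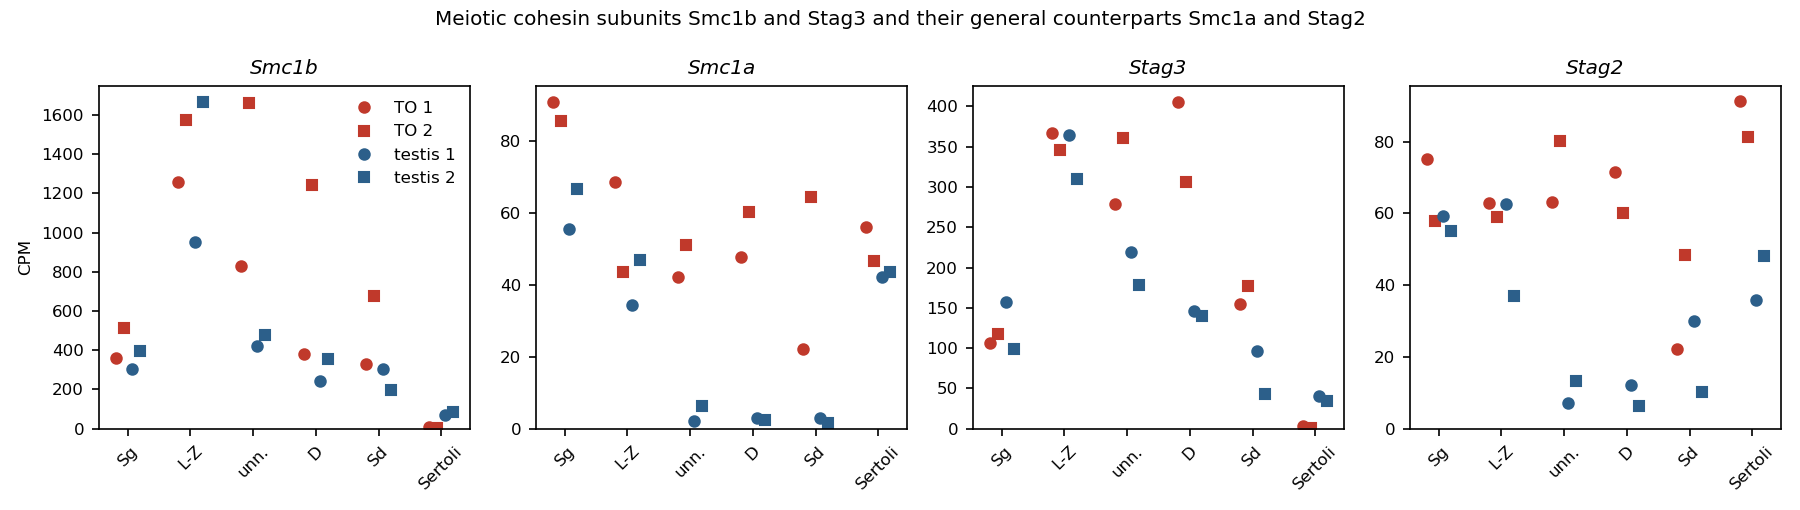
Level in CPM (vertical axis, linear and separate for each gene) of the meiotic cohesin subunits Smc1b and Stag3 and the general subunits Smc1a and Stag2 in spermatogonia (Sg), leptotene to zygotene (L-Z), the unnamed meiotic cluster (unn.), diplotene (D), spermatids (Sd) and Sertoli-like cells, with 1 point per library. In the unnamed meiotic cluster Smc1a was at 42.2 and 50.9 in TOs and 2.2 and 6.3 in testes, while Smc1b was at 831 and 1663 against 421 and 479.

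In the unnamed meiotic cluster, where none of the 10 genes was called, edgeR called 6 of 20 genes of the list higher in TOs and 0 lower. Of all genes it called 4.51% higher and 12.4% lower. DESeq2 called 5 of the list and 9.58% of all genes. Smc3, the cohesin partner of SMC1B and SMC1A alike, was at 354 and 458 CPM in TOs and 57.8 and 108 in testes (log2 fold change 2.17, edgeR adjusted p = 0.000281). Smc1a was at 42.2 and 50.9 against 2.2 and 6.3 (3.28, edgeR adjusted p = 0.000748), from 10, 14, 3 and 10 UMIs, and Stag2 at 63.3 and 80.0 against 7.2 and 13.2 (2.67, edgeR adjusted p = 0.00182). The others were 4930447C04Rik, at 1193 and 1514 against 180 and 381 (2.16, edgeR adjusted p = 0.000353), Ccdc36 (IHO1, an axis protein of recombination start, 2.67, edgeR adjusted p = 0.00242) and Rad21l (a meiotic kleisin, 2.80, edgeR adjusted p = 0.0053). For each gene with levels given, both TO libraries were above both testis libraries.

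Smc1a and Stag2 are X-linked, and Smc3 is on chromosome 19. The X chromosome is known to be silenced in spermatocytes from pachytene on, and in the unnamed meiotic cluster X-linked genes gave 2.29% and 2.48% of UMIs in TOs and 0.417% and 0.700% in testes. The meiotic subunits Smc1b and Stag3, at 278 and 360 against 219 and 178 for Stag3, had log2 fold changes of 1.33 and 0.51 in this cluster, where Smc1a, Stag2 and Smc3 had 3.28, 2.67 and 2.17, and the difference between these genes was not tested.

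The genes whose testis pattern was most like the mean pattern of the 10 were Ly6k (Pearson r = 0.987), Meiob (0.986), Mpp5 (0.980), Msh5 (0.977) and Spryd7 (0.976), over 10 testis sums (5 stages in 2 libraries) and 7799 genes with enough UMIs. The sums of a library share its depth and any stray RNA, and Meiob is one of the markers that named the stage. Meiob, which encodes a single-strand DNA binding protein of recombination, was at 155 and 191 CPM at leptotene to zygotene in TOs and 129 and 240 in testes, and Msh5, a crossover factor, at 108 and 117 against 101 and 130. Ly6k, which encodes a germ cell surface protein, was at 1097 and 958 against 927 and 1113. The TO values of all 3 lay between those of the testis libraries. Mpp5, at 183 and 211 against 190 and 220, and Spryd7, at 252 and 326 against 231 and 278, each had a TO library outside that range. Among the 10 genes, Sycp2 followed the mean pattern most closely (r = 0.976) and Syce3 (0.499), Syce2 (0.329) and Syce1 (0.160) least.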

How the data were processed

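The 4 libraries (2 of TOs, 2 of testes) were unsorted cells sequenced with the 10x Genomics kit. The authors deposited raw UMI counts per gene and barcode, made with Cell Ranger 7.1.0 on mm10 per the submitters' processing notes, without normalization. The 10 genes and the lists were chosen with earlier results of these data known.

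Here the barcodes with the highest doublet scores (0.8% per 1000 barcodes, a Scrublet-type score) were removed, as were those outside 1000 to 5000 genes, above 20000 UMIs or above a mitochondrial share of 10%. Cells were joined with Harmony (theta 2), clustered with Leiden (leidenalg 0.10.2, 20 neighbours, resolution 1, 20 components for germ cells) without the genes described, and named from markers. The names were rebuilt and can differ from those of the study. Libraries held 74988295 to 119966959 UMIs, and leptotene to zygotene sums 808803 to 2409286. Intervals and shares cover counting error only.

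Sums per library and stage of at least 10 cells were tested with the quasi-likelihood test of edgeR 4.0.16 (R 4.3.3, TMM scaling, Benjamini-Hochberg over all genes) and, as an alternative, with DESeq2 1.42.0. Other alternatives were filters, doublets, Harmony, resolution, matching of cells, scaling, libraries left out and a replicate block. Replicate numbers did not pair the libraries by correlation of deviations, which ranged from -0.04 to 0.17. All 10 genes were named, and of the further list those called. The 5 genes of most similar pattern were named among those reaching 50 CPM in a testis stage. The steps were checked on simulated data. Python 3.11.15, numpy 2.4.6, scipy 1.17.1, pandas 2.3.3, scikit-learn 1.9.0, igraph 0.11.9 and matplotlib 3.10.9 were used.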

Additional observations from a re-analysis of the deposited data

Results flagged for a closer look

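Syce3 had a log2 ratio of mean CPM, TO over testis, of 0.289 in the unnamed meiotic cluster, with the TO libraries above the testis libraries, and of -0.815 in spermatogonia, -0.535 at leptotene to zygotene and -1.87 in spermatids, with the TO libraries below. Syce2 had a log2 ratio of 1.58 in the unnamed meiotic cluster and of -1.77 in spermatids, again without overlap and in opposite directions. These pairs were picked out because every library moved one way in one group of cells and the other way in the other, and the differences were not tested.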

How the results depend on the processing

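The depth of the late TO stages limits the comparison, since 23 and 31 cells named diplotene and 12 and 16 named spermatid stand for the TOs. With 2 libraries per condition an exact permutation test cannot go below 0.333.

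Of 1239 values of single genes under alternatives, 1110 kept their side of the threshold without a called change of direction (109 of them changed sign without a call), 94 lost a call, 31 gained one and 4 reversed. Those reversed were Syce2 at diplotene, to -2.46 without TO replicate 2 and to -2.28 with doublets kept, Sycp3 at diplotene, to -0.61 without TO replicate 2, and Ccdc155 in spermatogonia, to 0.28 with the level in Sertoli-like cells subtracted. The median over all genes was -2.24 at diplotene without TO replicate 2 and -0.72 with all libraries, so that -2.46 for Syce2 stands near it and -0.61 for Sycp3 above it. Over the libraries left out in turn, the diplotene value ranged from -2.46 to 0.62 for Syce2 and from -0.61 to 3.41 for Sycp3.

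At an adjusted p below 0.05 with no fold limit, 2 of the 10 genes were called in spermatogonia (19.5% of all genes) and 4 over all germ stages (70.7%). At diplotene 0 of 10 were called when genes with any count were tested (5836 genes at an unadjusted p below 0.05), 2 with doublets kept (9.16% of all genes) and 1 with the level in Sertoli-like cells subtracted (6.72%). In spermatids 3 were called by DESeq2 and 3 with all stages in one fit. Over all germ stages 4 were called with a replicate block (57.2% of all genes) and 1 with cells matched to testis stages (51.2%). With the subtraction 0 were called (32.5%), and with the unnamed cluster joined 1 (50.9%). In the unnamed meiotic cluster 1 was called with RLE scaling (17.2% of all genes). The genes highest at leptotene to zygotene numbered 8 in TOs with doublets kept, 8 with cells matched, 6 without Harmony, 4 at resolution 2 and 3 without upper limits. They numbered 7 or 8 in testes. Only stages with at least 10 cells in a library were ranked.

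Each library was left out in turn, which left 1 library in a condition. The median log2 fold change over the 10 genes then ran from -0.31 to 0.15 in spermatogonia and from -0.13 to 0.42 at leptotene to zygotene. At diplotene it ran from -0.19 to 1.77, where the median over all genes ran from -2.24 to -0.03. Over all germ stages it ran from 0.18 to 1.28, and in the unnamed meiotic cluster from 0.47 to 1.12. At leptotene to zygotene Tex12 had 1.42 without testis replicate 2. The fit with the replicate number as a block called 3 higher and 1 lower at diplotene (4.67% and 10.6% of all genes). It called 0 in spermatogonia, at leptotene to zygotene and in spermatids (16.5%, 17.1% and 0% of all genes).

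The difference in genes per cell changed sign at leptotene to zygotene with 1000 UMIs (-0.0463) and without upper limits (-0.0383), in spermatids with doublets kept (-0.172), and in spermatogonia without upper limits (-0.0298), without Harmony (-0.0227) and with cells matched (-0.131). Leaving out each library moved it from -0.308 to 0.560 at leptotene to zygotene and from -0.373 to 0.431 in spermatogonia, and from 0.795 to 2.41 at diplotene, where it was 0.117 with doublets kept. The cause of these changes was not tested. Pachytene was tested only where an alternative left at least 10 cells per library, and called 1, 2, 0 and 5 of the genes without upper limits, with doublets kept, without Harmony and at resolution 2, where 5.15%, 10.6%, 3.42% and 24.7% of all genes were called. Diplotene and spermatids could not be tested without upper limits, without Harmony or with cells matched.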
